A study of Mus musculus with 9 samples.

Results

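The genes described here are 10 members of the gp130 cytokine and STAT3 axis, chosen by name from the 57010 genes of the count table. They are the cytokine genes Il6, Il11, Lif, Osm and Clcf1, the receptor genes Il6st, Osmr and Lifr, the transcription factor gene Stat3 and the feedback inhibitor gene Socs3. Of these, 9 passed the filter on low counts and were tested, and Osm did not pass. Their transcripts were counted by RNA sequencing in primary cultured renal cells (PCRCs). The source was kidneys of wild-type mice, which had been minced, enzyme-digested and cleared of red cells, then grown in serum medium and replated. The 9 libraries form 3 groups of 3, each harvested after 6 h: PBS as the control, TNF at 20 ng/mL, and the same dose of TNF together with the NF-kB inhibitor ACHP at 1 µM. All groups share the genotype and the culture steps, and no group received ACHP alone, so an effect of ACHP without TNF cannot be told apart from an effect on the TNF response. Whether replicates were separate animals or cultures is not stated in the labels, and p-values therefore cover the spread among these 9 libraries alone, which may be technical.

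Cytokines of the IL-6 family signal through a shared receptor chain, gp130, which Il6st encodes. IL-6 and IL-11 first bind their own receptor chains. Complexes for LIF and CLCF1 hold gp130 and the LIF receptor, and those for oncostatin M can pair gp130 with the oncostatin M receptor. Kinases of the JAK family bound to gp130 then phosphorylate STAT3, which enters the nucleus and raises genes such as Socs3, whose product binds gp130 and JAK and shuts the signal down. In mouse kidney, injured tubule cells are known to make IL-11.

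Total counts per library ran from 14194295 to 20892176. Epithelial genes were high in every library, with a mean of 1071.6 CPM (counts scaled to a common library size) for Cdh1 and 422 CPM for Epcam with PBS. Segment markers were lower or absent: of the proximal tubule genes, Lrp2 was at 8.41 CPM and Cubn at 7.99 CPM with PBS and Slc34a1 had 1 count in all 9 libraries, and Aqp2 of the collecting duct had no count. Slc34a1 shares 11.7% of its exon length with Pfn3. The summed CPM of 10 neuron markers separated 5 libraries, PBS replicates 2 and 3 and TNF replicates 1 to 3, at 31.8 to 71.2 CPM, from the other 4 at no more than 18.6 CPM. All libraries with ACHP lie in the low set, so their comparison with TNF alone runs along this split. PBS replicate 1 is the one control in the low set, and members' values with a term for this split are given where they end a call.

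In both comparisons with ACHP, the cytokine gene Il11 had the largest called change among the members. Il11, which encodes an IL-6 family cytokine linked to fibrosis and epithelial stress, lies on chromosome 7 from 4775372 to 4785858 on the minus strand (ENSMUSG00000004371, GRCm39, as are all gene positions here). Its level was 37.1, 37.1 and 33.9 CPM in the PBS libraries, 41.6, 42.6 and 41.4 CPM in the TNF libraries, and 60.2, 59.5 and 57.5 CPM in the libraries with TNF and ACHP. The 3 groups did not overlap, with the PBS libraries lowest and the ACHP libraries highest. The counts behind these levels were 526 to 1248 per library. TNF raised Il11 by 16.2% over PBS (95% interval 7.37 to 25.8%), a log2 fold change of 0.22 (SE 0.05, edgeR adjusted p = 0.021 over all genes tested). ACHP with TNF raised it by a further 41.3% over TNF alone (95% interval 31.1 to 52.2%, log2 fold change 0.50, SE 0.05, edgeR adjusted p = 2.7e-06). Il11 with TNF and ACHP was 64.2% above PBS (95% interval 52.3 to 77.1%, edgeR adjusted p = 7.5e-08). Among the controls, PBS replicate 1 of the low neural set held 37.1 CPM of Il11, and PBS replicates 2 and 3 of the high set 37.1 and 33.9 CPM. In bulk libraries such as these, a change in the number of cells that make a transcript and a change in RNA per cell cannot be told apart.

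The step from PBS to TNF was the less firm of the Il11 changes. Its call was lost with DESeq2 (adjusted p = 0.055), without PBS replicate 3 (0.18 on the log2 scale, edgeR adjusted p = 0.099), and without TNF replicate 1, 2 or 3 (edgeR adjusted p = 0.076, 0.10 and 0.060). The change from TNF to TNF with ACHP was called under every one of the 18 alternatives, between 0.43 and 0.52 on the log2 scale. With the term for the neural split it was 0.43 (SE 0.10, edgeR adjusted p = 0.043).

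Lif encodes a cytokine that signals through gp130 and the LIF receptor and is known to act on embryonic stem cells and, in the rat, on developing kidney epithelium. The gene lies on chromosome 11 from 4207557 to 4222514 on the plus strand (ENSMUSG00000034394). Its level was 175, 179 and 188 CPM with PBS, 217, 211 and 209.7 CPM with TNF, and 215, 218 and 223 CPM with TNF and ACHP. Every TNF library and every ACHP library lay above every PBS library, and the TNF and ACHP libraries overlapped. TNF raised Lif by 17.8% (95% interval 11.6 to 24.3%, log2 fold change 0.24, SE 0.04, edgeR adjusted p = 4.1e-04). The level with ACHP differed from that with TNF alone by 2.75% (95% interval -2.57 to 8.35%, edgeR adjusted p = 0.61). Against PBS it was 21.0% higher (edgeR adjusted p = 1.5e-04). Both calls against PBS held under every alternative, at 0.21 to 0.27 for TNF and 0.25 to 0.32 for TNF with ACHP on the log2 scale.

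**Figure D1:**
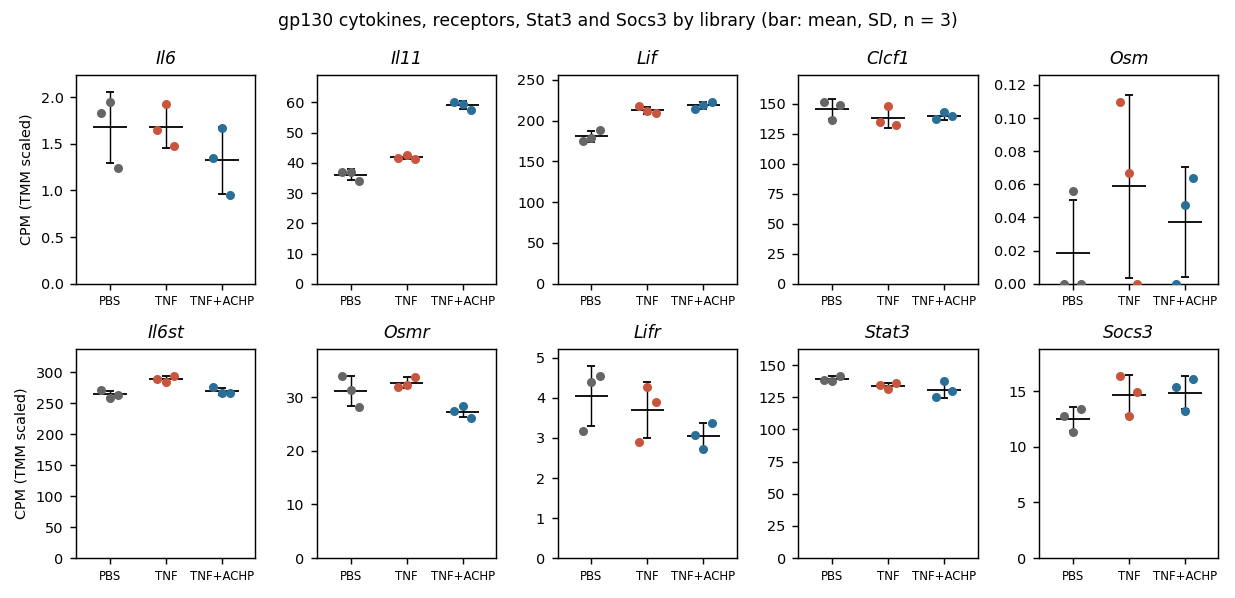
CPM (vertical axis, linear, from 0) of the 10 members in each of the 9 libraries, by group, with 1 point a library and the mean and SD of each group. Il11 steps up from 33.9 to 37.1 CPM with PBS to 57.5 to 60.2 CPM with TNF and ACHP, and Lif rises with TNF and stays there with ACHP.

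The remaining cytokine genes did not pass the test in any comparison. Il6, the founding cytokine of the family, had 15 to 35 counts per library (chromosome 5, 30218112 to 30224979, ENSMUSG00000025746). Its level was 1.83, 1.95 and 1.24 CPM with PBS, 1.65, 1.93 and 1.47 CPM with TNF, and 1.35, 1.67 and 0.956 CPM with TNF and ACHP. All 3 groups overlapped. TNF changed Il6 by 0.77% (95% interval -34.0 to 53.8%, edgeR adjusted p = 0.99), an interval wide enough that changes of the size seen for Il11 and Lif could not be detected at this depth. ACHP with TNF against TNF gave -20.1% (95% interval -48.1 to 23.0%, edgeR adjusted p = 0.60).

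Clcf1, a cytokine gene of the ciliary neurotrophic factor branch of the family (chromosome 19, 4264292 to 4273544, ENSMUSG00000040663), was abundant. Its level was 152, 137 and 149 CPM with PBS, 135, 149 and 132 CPM with TNF, and 137, 144 and 139.9 CPM with TNF and ACHP. The groups overlapped, and the 3 comparisons gave -4.88, 1.22 and -3.72%, with edgeR adjusted p = 0.47, 0.89 and 0.61. For TNF against PBS the 95% interval was -11.3 to 2.00%. Osm, the oncostatin M gene (chromosome 11, 4186420 to 4191026, ENSMUSG00000058755), had 6 counts in all, at most 2 in a library and none in 4 of the 9 libraries. A count of 0 allows a level of up to 0.143 to 0.212 CPM, depending on the library's total and covering counting error only, and no fold is given.

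Promoters are shown for Il11, Lif and Il6 because these windows hold matches to motifs of AP-1 and NF-kB, factors that TNF receptors are known to activate. The windows are the 250 bases before a transcription start in the RefSeq table, on GRCm38.p6, a build different from that of the gene positions above. The table held 8 of the 10 members in 10 windows, and Osm and Clcf1 were without an entry. Both strands were searched for TGACTCA (AP-1), for the NF-kB consensus and for TTCNNNGAA (STAT). Among 32851 promoters of that length, 4.46% held the AP-1 letters, 7.25% the NF-kB consensus and 7.02% the STAT letters. Capitals mark the matches, and each sequence is written 5′ to 3′ along the gene's strand.
Il11 downstream start, chr7:4778142-4778391, minus strand: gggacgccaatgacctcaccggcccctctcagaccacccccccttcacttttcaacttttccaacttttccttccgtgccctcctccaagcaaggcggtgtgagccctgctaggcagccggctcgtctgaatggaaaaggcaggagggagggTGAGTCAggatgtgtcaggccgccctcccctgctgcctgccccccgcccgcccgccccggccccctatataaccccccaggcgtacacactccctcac
Lif, chr11:4257318-4257567, plus strand: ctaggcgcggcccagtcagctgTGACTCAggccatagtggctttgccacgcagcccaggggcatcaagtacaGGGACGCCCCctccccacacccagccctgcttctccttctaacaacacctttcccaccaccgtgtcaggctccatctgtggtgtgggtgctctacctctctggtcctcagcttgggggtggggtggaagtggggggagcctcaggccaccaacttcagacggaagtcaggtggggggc
Il6, chr5:30012864-30013113, plus strand: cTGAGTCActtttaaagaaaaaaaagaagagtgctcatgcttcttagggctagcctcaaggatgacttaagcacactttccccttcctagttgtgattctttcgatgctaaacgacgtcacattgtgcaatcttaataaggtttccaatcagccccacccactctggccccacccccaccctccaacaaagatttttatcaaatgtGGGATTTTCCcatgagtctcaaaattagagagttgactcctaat
In the Il11 window the AP-1 match TGAGTCA lay 98 to 92 bases before the start. In the Lif window an AP-1 match lay 228 to 222 bases and an NF-kB match, GGGACGCCCC, 178 to 169 bases before the start. The Il6 window held both as well, TGAGTCA 249 to 243 bases and GGGATTTTCC 44 to 35 bases before the start. Of the other windows, that of Socs3 held a STAT match, TTCTTAGAA, 154 to 146 bases before the start, and the windows of Stat3, Il6st, Osmr, Lifr and the upstream Il11 start held none of the 3 motifs. Lif and Il6 both held AP-1 and NF-kB letters, while Lif was called with TNF and Il6, at its low counts, was not. Parts of some windows lie in exons of the GENCODE annotation: 11 bases for Lif, 77 for Socs3, 13 in one Lifr window, 2 in the upstream Il11 window and all 250 for Osmr. The bases just after the Socs3 start were in 0 of its 3 GENCODE transcripts. That start, and the distance of the STAT match from it, are therefore uncertain. A match or its absence describes the letters of the window alone, and no binding was measured.

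Among the receptor genes, Il6st rose slightly with TNF and Osmr was lower with ACHP than with TNF alone. Il6st encodes gp130 (chromosome 13, 112600604 to 112646620, ENSMUSG00000021756). Its level was 270.3, 259 and 263 CPM with PBS, 289, 284 and 293 CPM with TNF, and 275, 266 and 266 CPM with TNF and ACHP. The TNF libraries lay above all 6 others. TNF raised Il6st by 9.43% (95% interval 4.22 to 14.9%, log2 fold change 0.13, SE 0.03, edgeR adjusted p = 0.024). From TNF to TNF with ACHP the change was -6.82% (95% interval -11.3 to -2.18%), which did not pass the test (edgeR adjusted p = 0.075), and the level with ACHP differed from PBS by 1.96% (edgeR adjusted p = 0.74). The TNF call was lost without PBS replicate 2 (edgeR adjusted p = 0.096) and without TNF replicate 1, 2 or 3 (0.10, 0.062 and 0.13), while the ACHP difference was called when only the 6 libraries compared were fitted (0.044) and without PBS replicate 3 (0.047).

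Osmr encodes the second chain of the oncostatin M receptor (chromosome 15, 6843058 to 6904450, ENSMUSG00000022146). Its level was 33.9, 31.4 and 28.2 CPM with PBS, 31.9, 32.4 and 33.8 CPM with TNF, and 27.5, 28.3 and 26.2 CPM with TNF and ACHP. The ACHP libraries lay below every TNF library, and PBS replicate 3 reached down among them. Osmr fell by 16.3% from TNF to TNF with ACHP (95% interval -24.2 to -7.52%, log2 fold change -0.26, SE 0.07, edgeR adjusted p = 0.026). TNF against PBS gave 5.27% (95% interval -4.58 to 16.1%, edgeR adjusted p = 0.63), and ACHP with TNF against PBS gave -11.8% (edgeR adjusted p = 0.14, or 0.030 without PBS replicate 3). The ACHP call was lost in 8 of 18 alternatives, namely DESeq2 (adjusted p = 0.056), leaving out TNF replicate 1, 2 or 3 or ACHP replicate 1 or 3, and both terms for the neural transcripts, where the change was -0.36 (adjusted p = 0.061) and -0.44 (adjusted p = 0.081) in edgeR. Lifr, the LIF receptor gene (chromosome 15, 7120095 to 7226970, ENSMUSG00000054263), had 45 to 84 counts per library and a level of 2.72 to 4.55 CPM, and no comparison passed the test (edgeR adjusted p = 0.76, 0.49 and 0.25). Its groups overlapped in all 3 comparisons, and the 95% interval of the change with TNF was -32.2 to 19.5%.

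Stat3 and Socs3 did not pass the test in any comparison. Stat3, the transcription factor gene (chromosome 11, 100775924 to 100830366, ENSMUSG00000004040), was held within a narrow range, from 125 to 141 CPM over all 9 libraries. The libraries read 138, 137 and 141 CPM with PBS, 134, 132 and 136 CPM with TNF, and 125, 137 and 129.8 CPM with TNF and ACHP. All TNF libraries and all ACHP libraries lay below all PBS libraries, the closest pair being 137.5 CPM with PBS and 137.47 CPM with ACHP. The changes were -3.71% with TNF (95% interval -9.20 to 2.12%, edgeR adjusted p = 0.53) and -5.76% with ACHP (95% interval -11.1 to -0.0838%, edgeR adjusted p = 0.26). These values concern the Stat3 transcript, and phosphorylation, through which STAT3 is activated, was not measured.

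Socs3, which closes the feedback loop on gp130 (chromosome 11, 117856905 to 117860873, ENSMUSG00000053113), had 181 to 298 counts per library. Its level was 12.8, 11.3 and 13.4 CPM with PBS, 16.4, 12.8 and 14.9 CPM with TNF, and 15.4, 13.2 and 16.1 CPM with TNF and ACHP. Replicate 2 was the lowest library of each group, and the PBS range overlapped both others. The change was 18.2% with TNF (95% interval 1.43 to 37.8%, edgeR adjusted p = 0.21) and 18.6% with TNF and ACHP against PBS (95% interval 1.92 to 38.1%, edgeR adjusted p = 0.20). These point values were close to those of Lif (17.8 and 21.0%), with standard errors of 0.11 and 0.10 on the log2 scale against 0.04 for Lif. ACHP with TNF differed from TNF alone by 0.334% (95% interval -13.6 to 16.5%, edgeR adjusted p = 0.99).

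Counted together, 3 of the 9 members tested rose with TNF (Il11, Lif and Il6st) and 0 fell in edgeR, where 6.22% of all genes tested were called, 3.31% higher and 2.91% lower. At an unadjusted p under 0.05 the members higher and lower were 4 and 0, and DESeq2 called 2 and 0. Only Lif was called when TNF replicate 1, 2 or 3 was left out. From TNF to TNF with ACHP, Il11 rose and Osmr fell, against 7.17% of all genes called, 2.71% higher and 4.46% lower. There, 1 member was higher and 2 lower at an unadjusted p under 0.05, and DESeq2 called 1 higher and 0 lower. From PBS to TNF with ACHP, Il11 and Lif rose, against 6.04% of all genes called, 2.18% higher and 3.87% lower, and 0 members fell (3 higher and 3 lower at an unadjusted p under 0.05, and 2 higher and 0 lower with DESeq2). Without overlap between groups, 3 members lay above PBS with TNF and 1, Stat3, below, beside 12.3% and 11.5% of all genes. From TNF to TNF with ACHP 1 lay above and 2, Il6st and Osmr, below, beside 12.4% and 13.3%. From PBS to TNF with ACHP 2 lay above and 1, Stat3, below, beside 10.7% and 9.94%. The median log2 fold change over the members was 0.07, -0.03 and -0.05 in these comparisons, beside 0.00 in each for all genes. The 3 comparisons share libraries, so their values are not independent of each other.

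**Figure D2:**
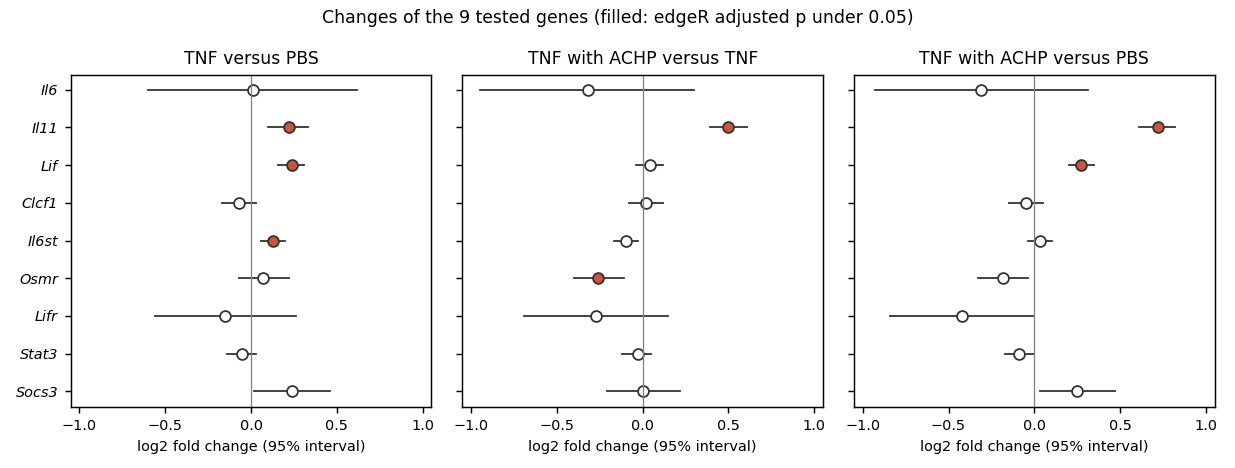
Log2 fold change of each tested member (horizontal axis) in the 3 comparisons, with 95% intervals. Il11 lies at 0.22, 0.50 and 0.72, Lif at 0.24, 0.04 and 0.27, and Il6 and Lifr have the widest intervals.

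Set against each other per length of transcript, the members spanned a wide range of levels. With PBS, Lif stood at 41.5 ± 1.53 CPM per kilobase of exon length (SD, n = 3) and Clcf1 at 38.3 ± 2.11, and these neighbours did not differ beyond their spread. Below them came Il6st at 23.8 ± 0.531, Il11 at 17.3 ± 0.877, Stat3 at 14.6 ± 0.220, Socs3 at 4.32 ± 0.366 and Osmr at 2.57 ± 0.238 CPM per kilobase. The lowest were Il6 at 0.691 ± 0.156, Lifr at 0.375 ± 0.0699 and Osm at 0.00818 ± 0.0142 CPM per kilobase. Thus, per kilobase, the ligand transcripts Lif and Clcf1 exceeded the transcript of the shared receptor chain, while the transcript of the LIF receptor itself was near the bottom of the order. Before division by length Il6st was the higher, at a mean of 264 CPM with PBS against 181 for Lif and 146 for Clcf1. With TNF the order per kilobase was the same, and Lif at 48.9 ± 0.953 CPM per kilobase then lay above Clcf1 at 36.4 ± 2.33. With TNF and ACHP a single exchange appeared, Il11 at 28.4 ± 0.677 CPM per kilobase standing above Il6st at 24.2 ± 0.493. Exon length counts every annotated exon of a gene, so a level per length is lower for genes with long exons that these cells do not use.

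**Figure D3:**
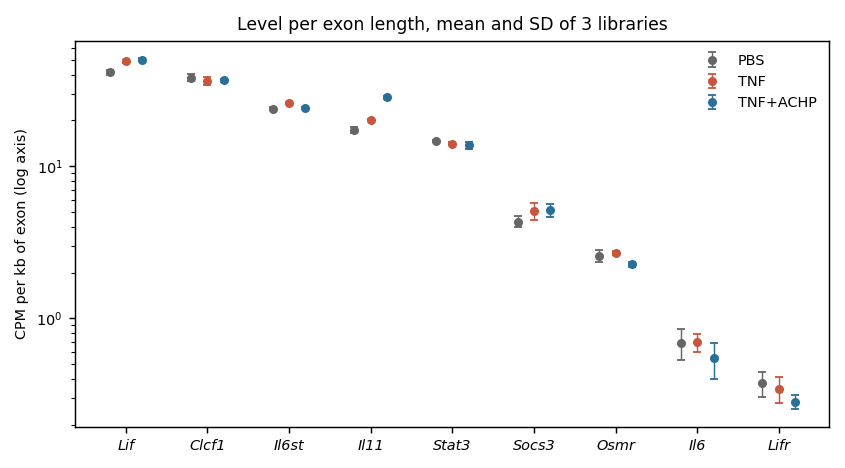
Level per kilobase of exon length (logarithmic axis, CPM per kilobase) of 9 members (all but Osm) in the 3 groups, as mean and SD of 3 libraries. Lif and Clcf1 lead in each group, and Il11 passes Il6st with TNF and ACHP.

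The rest of the pathway was described from lists of ligands, receptors, JAK and STAT genes, feedback genes and STAT3 target genes. Of the other ligands, Ctf1, the cardiotrophin gene, was at 0.08 on the log2 scale with TNF (SE 0.13, edgeR adjusted p = 0.82).

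Of 5 other receptor genes 3 were tested, Il6ra and Il11ra1, which encode the binding chains for IL-6 and IL-11, and Cntfr, which encodes that for ciliary neurotrophic factor. Their mean levels with PBS were 3.54, 5.40 and 4.12 CPM, and 0 were called in any comparison by edgeR or DESeq2. At an unadjusted p under 0.05 none was counted with TNF and 1, Cntfr, in each comparison with ACHP. Il11ra1 changed by -0.31 on the log2 scale with TNF (SE 0.17, edgeR adjusted p = 0.35). Of 13 JAK and STAT genes 12 were tested, and 0 were called in any of the 3 comparisons by edgeR or DESeq2, with 1, 0 and 1 at an unadjusted p under 0.05. The median log2 fold change of these genes was 0.03, 0.00 and 0.01, and that of Jak1, a kinase of gp130 complexes at a mean of 288 CPM with PBS, was 0.05 (SE 0.04) with TNF.

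Among 14 other feedback genes, all of them tested, 2 rose with TNF and 0 fell in edgeR, beside 3.31% and 2.91% of all genes. DESeq2 called 1 higher and 0 lower. Socs2, a SOCS gene better known as a brake on growth hormone signalling, went from 41.2, 43.9 and 40.9 CPM with PBS to 55.5, 58.2 and 56.5 CPM with TNF, and was 55.2, 46.6 and 52.4 CPM with TNF and ACHP. No TNF or ACHP library overlapped the PBS libraries. Socs2 rose by 34.9% with TNF (95% interval 23.6 to 47.2%, edgeR adjusted p = 1.2e-04), a call that held in every alternative. With TNF and ACHP it was 21.9% above PBS (log2 fold change 0.29, edgeR adjusted p = 0.0064). With the neuron marker covariate, the neural library term and PBS replicate 1 as the only control it was 0.35, 0.31 and 0.31, not called (edgeR adjusted p = 0.10, 0.12 and 0.070). Cish, a SOCS family inhibitor of STAT5 signalling that shares 11.5% of its exon length with other genes, rose by 26.7% with TNF (edgeR adjusted p = 0.023). That call was lost in 7 of 18 alternatives: DESeq2, the neural library term, and leaving out PBS replicate 1 or 3 or any TNF replicate. From TNF to TNF with ACHP, Pias3, whose product binds STAT3 and blocks its DNA binding, rose by 27.0% (edgeR adjusted p = 0.011), and Socs7, another SOCS gene, by 15.3% (edgeR adjusted p = 0.027). Both calls were lost with the neuron marker covariate and with the neural library term at similar folds and larger standard errors: Pias3 was 0.34 on the log2 scale (SE 0.08), then 0.30 (SE 0.12) and 0.32 (SE 0.15), and Socs7 was 0.21 (SE 0.06), then 0.20 (SE 0.08) and 0.20 (SE 0.11). That of Pias3 was also lost without TNF replicate 2 or ACHP replicate 2, and that of Socs7 with DESeq2, without any TNF replicate and without ACHP replicate 1 or 3. From TNF to TNF with ACHP the list's count was thus 2 higher and 0 lower, beside 2.71% and 4.46% of all genes. From PBS to TNF with ACHP it was 1 and 0, beside 2.18% and 3.87%. DESeq2 called 1 higher and 0 lower in each. The other 10 feedback genes were not called with TNF or from TNF to TNF with ACHP. The list's median log2 fold changes were -0.07, 0.05 and 0.02.

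Of 31 genes listed as STAT3 targets, 25 were tested. With TNF 7 rose, Hp, Timp1, Ier3, Junb, Birc5, Il4ra and Maff, and 0 fell in edgeR, beside 3.31% and 2.91% of all genes, with 11 higher and 2 lower at an unadjusted p under 0.05 and 5 and 0 in DESeq2. With total counts alone, unscaled by TMM, 5 rose and 1 fell. Hp is in the count of 7 although it passed the filter on low counts through the TNF group alone. With a minimum of 1 CPM in 3 libraries, which leaves Hp out, 6 rose and 0 fell. The list's median log2 fold change was 0.11, and several of these genes are also known targets of NF-kB. Timp1, an inhibitor of matrix proteases, went from 47.4, 50.0 and 46.9 CPM with PBS to 59.3, 61.5 and 60.8 CPM with TNF, a rise of 25.7% (edgeR adjusted p = 1.7e-04). Ier3, an early response gene of cell survival, went from 257, 239 and 254 to 297, 299 and 313 CPM, a rise of 21.3% (edgeR adjusted p = 2.8e-04). In neither gene did the groups overlap. Leaving out TNF replicate 1, 2 or 3 or PBS replicate 2 left 3 or 4 genes called. Maff, and Pim1 of the next comparison, share more than 10% of their exon length with other genes. From TNF to TNF with ACHP, 4 rose, Steap4, Cebpd, Bcl2l1 and Vegfa, and 2 fell, Hp and Pim1. These counts stand beside 2.71% and 4.46% of all genes, and the list's median was 0.00. At an unadjusted p under 0.05, 6 were higher and 8 lower, and DESeq2 called 4 higher and 1 lower. Without TNF replicate 2 the count was 3. With the 1 CPM minimum that leaves Hp out, 4 rose and 1 fell. From PBS to TNF with ACHP 7 rose, Steap4, Cebpd, Ier3, Myc, Timp1, Lcn2 and Maff, and 0 fell in edgeR, beside 2.18% and 3.87% of all genes, with 9 and 2 at an unadjusted p under 0.05 and 7 and 0 in DESeq2. Without PBS replicate 2 or ACHP replicate 3 that count was 4.

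Hp and Steap4, acute-phase and metalloreductase genes that STAT3 raises in mouse liver and fat, had their highest counts in different groups. The haptoglobin gene Hp gave 20, 15 and 15 counts in the TNF libraries, against 1, 1 and 3 in the PBS libraries and 1, 7 and 0 in those with ACHP. All TNF libraries were above all others. Hp passed the filter on low counts through the TNF group alone, and the PBS and ACHP libraries lie near the 3-count floor, so its fitted folds rest on few counts and are no bound, and its calls are not read as support here. Steap4, an iron and copper reductase gene, gave 42, 99 and 64 counts in the ACHP libraries, against 15, 10 and 13 in the TNF libraries and 8, 4 and 8 in the PBS libraries. Each group lay above the one before it, with a log2 fold change of 0.95 with TNF (SE 0.43, edgeR adjusted p = 0.23) and 2.28 from TNF to TNF with ACHP (SE 0.31, edgeR adjusted p = 8.5e-05). Against PBS, Steap4 was higher by 3.24 on the log2 scale (SE 0.35, edgeR adjusted p = 1.3e-05), and this call held in all 19 alternatives at 2.52 to 3.50. Saa3, a serum amyloid gene too low for the test, gave 6, 4 and 5 counts in the TNF libraries, against 2, 0 and 0 in the PBS libraries and 0 in each ACHP library. The list's other untested genes did not share this order. Fga, Fgb and Fgg gave 4, 7 and 5 counts in ACHP replicate 2, the library with 7 counts of Hp, and at most 1 in any other library. Saa1 and Saa2 had no count.

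The ACHP values were also fitted with terms for the neural split. All TNF libraries lie in the high set and all ACHP libraries in the low set. The size of the neural library term therefore rests on PBS replicate 1 against PBS replicates 2 and 3 alone. The part of the neural transcripts in these values was not tested. With the neuron marker sum as a covariate or with the neural library term, Steap4 from TNF to TNF with ACHP was 1.59 (edgeR adjusted p = 0.17) and 1.52 (0.45), against 2.28 without a term. Cebpd, a C/EBP family transcription factor gene with more than 10% of its exon length shared with Spidr, was 0.77 from TNF to TNF with ACHP (SE 0.13, edgeR adjusted p = 0.0010), 0.85 with the covariate (SE 0.20, adjusted p = 0.031) and 0.89 with the neural library term (SE 0.27, adjusted p = 0.13). From PBS to TNF with ACHP it was 0.69 (SE 0.13, edgeR adjusted p = 0.0030), and 0.78 with each term (adjusted p = 0.11 and 0.083) and with PBS replicate 1 as the only control (0.053). In the same comparison Timp1 was 0.21 (edgeR adjusted p = 0.012), or 0.25 with the covariate, 0.23 with the neural library term and 0.23 with that lone control (adjusted p = 0.17, 0.19 and 0.14). Ier3 was 0.28 (edgeR adjusted p = 4.1e-04), or 0.24 with each term (adjusted p = 0.091 with the covariate and 0.049 with the term). Of the STAT3 targets called from TNF to TNF with ACHP, 2 and 1 were then called in place of 6, and from PBS to TNF with ACHP 1 and 2 in place of 7. With PBS replicate 1 as the only control, 2 were called, and Steap4 was 2.75 (edgeR adjusted p = 0.0016). With TNF against PBS the list kept a count of 7 under both terms.

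**Figure D4:**
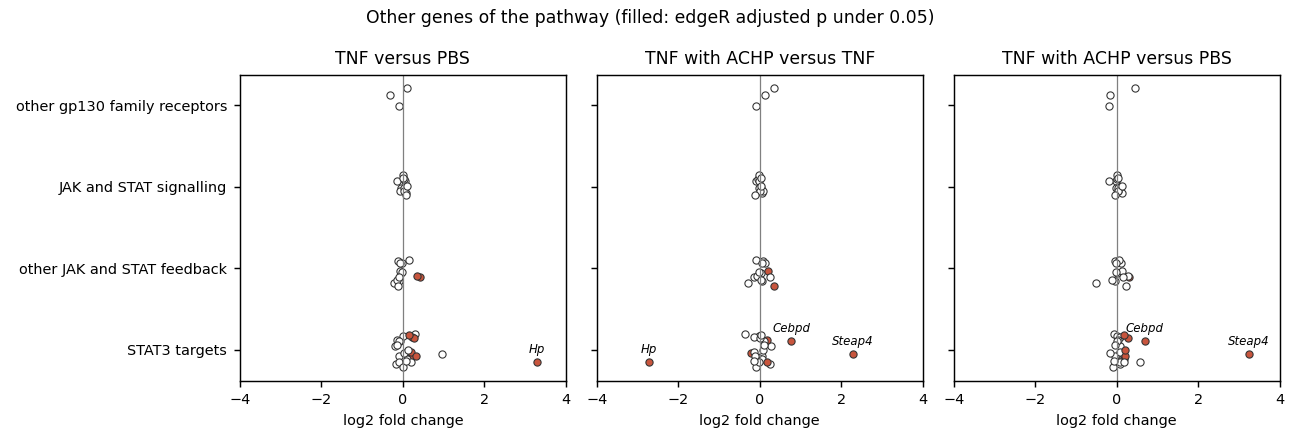
Log2 fold change (horizontal axis) of the tested genes of 4 pathway lists (rows) in the 3 comparisons, with 1 point a gene, filled where edgeR called it and spread vertically for legibility. Steap4 reaches 3.24 for TNF with ACHP against PBS, and the outlying Hp points, at 3.28 with TNF and -2.72 from TNF to TNF with ACHP, rest on few counts.

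The genes whose levels ran most like those of the 4 members called in any comparison were found by Pearson correlation of log2 CPM over the 9 libraries, among 10173 genes with a mean of at least 5 CPM. All values of a pair come from the same 9 libraries in 3 groups, so they are a description and carry no p. Il11 was most like Clk3 (r = 0.986), a splicing kinase gene with mean levels of 40.2, 42.0 and 46.4 CPM in PBS, TNF and TNF with ACHP, followed by Fads1 (0.977) and Psmd8 (0.971). Lif was most like Slco2a1 (r = 0.977), the prostaglandin transporter gene at 465, 584 and 603 CPM, then Tagln2 (0.973) and Grem1 (0.964). Both showed the pattern of a rise with TNF and no return with ACHP. Il6st was most like Bdkrb2 (r = 0.977), a bradykinin receptor gene at 18.4, 27.1 and 20.6 CPM, then Rin2 (0.970) and Nrp2 (0.965), all highest with TNF alone. Osmr was most like Osbpl3 (r = 0.945), at 377, 381 and 354 CPM, then Rpgr (0.943) and Cd109 (0.931), all lowest with ACHP.

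Marker lists of other cell types moved with the groups. Macrophage markers summed to 43.3 to 46.4 CPM with PBS, 44.9 to 47.3 with TNF and 25.4 to 28.2 with TNF and ACHP. Of 11 tested, 7 were lower from TNF to TNF with ACHP, beside 4.46% of all genes. None of the 14 was at 0 in all libraries. C1qa, C1qb, C1qc, Adgre1 and Itgam had 0 to 5 counts per library with ACHP, so they passed the filter through the other groups. The count of 7 is therefore not read as support here. Itgam also shares 68.7% of its exon length with Gm49368. In that comparison Cd14 went from a mean of 9.69 to 9.41 CPM and Cd68 from 4.90 to 4.37 CPM. Fibroblast markers summed to 248 to 265 CPM with PBS, 198 to 212 with TNF and 187 to 193 with TNF and ACHP. Most of the sum was Col1a1 and Col1a2, at means of 148 and 79.7 CPM with PBS. The means of these, Col3a1, Pdgfrb and Lum were lower with TNF. Those of Pdgfra (3.93 CPM with PBS, 4.67 with TNF) and Dcn (0.304 and 0.673 CPM) were higher. Of 6 tested 2 were lower with TNF, 2 from TNF to TNF with ACHP and 3 from PBS to TNF with ACHP. Of all genes, 2.91, 4.46 and 3.87% were called lower in these comparisons. The order of the 3 groups in Il11 level was the reverse of their order in the fibroblast sum. The part of that sum in the Il11 level was not tested. Endothelial markers summed to 26.9 to 31.5, 27.4 to 31.7 and 21.9 to 27.3 CPM. T cell markers summed to at most 0.141 CPM, and Cd3e, Cd3d and Cd3g had no count. Kidney epithelium markers summed to 4110 to 4166 CPM with PBS, 4003 to 4053 with TNF and 4193 to 4467 with TNF and ACHP. Most of that sum was Krt8, Cdh1, Krt18 and Epcam. The means of these and Pax8 were higher with TNF and ACHP than with PBS. Those of the other tested genes, Pax2, Lrp2, Cubn, Slc12a1 and Slc12a3, were lower. The fall of Osmr with ACHP went with the lower macrophage, fibroblast, endothelial and neuron sums, and the part of these in it was not tested.

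**Figure D5:**
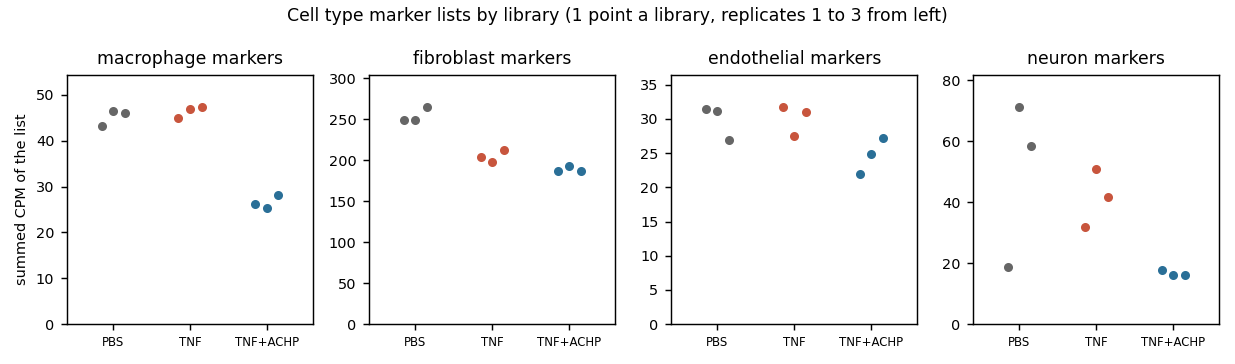
Summed CPM (vertical axis, from 0) of the macrophage, fibroblast, endothelial and neuron marker lists in each library, by group. Macrophage markers are at 25.4 to 28.2 CPM with ACHP against 43.3 to 47.3 CPM in the other groups, and neuron markers separate 5 libraries from the other 4.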

How the data were processed

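RNA sequencing counts of 9 libraries were analysed. The authors deposited whole-number counts for each Ensembl gene, with no normalization. Per the file headers, featureCounts 2.0.1 was run with Ensembl 109 on GRCm39. The submitters' processing notes also name STAR, DESeq2 and mm10; positions follow the table. Symbols matched 52029 of 57010 identifiers, which hold 99.6% of counts. Counts were not split by strand, and reads over more than 1 gene are left out. Overlaps above 10% of exon length are stated beside the named genes of the lists, and were not computed for the genes most like a member.

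In R 4.3.3, genes were kept by filterByExpr (14747), scaled by TMM (factors 0.993 to 1.01) and fitted with the quasi-likelihood test of edgeR 4.0.16 (limma 3.58.1) over all 9 libraries with a mean per group. The coefficient of variation between replicates was 4.01%. Calls are at 0.05 after Benjamini-Hochberg adjustment across the whole table; rose and fell refer to such calls. CPM values are TMM-scaled. Replicates differed by more than sampling noise, with chi-square values of 1.81 to 6.00 per degree of freedom.

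The members and lists were chosen with earlier results of these data known. Named are all members, the 3 most changed called genes per list and comparison, the called STAT3 targets and the 3 genes most like each called member. A few others (Ctf1, Il6ra, Il11ra1, Cntfr, Jak1, Saa3, and with it Saa1, Saa2, Fga, Fgb and Fgg) were added after their values were seen. Alternatives were DESeq2 1.42.0, total counts alone or RLE factors in place of TMM, no filter, a minimum of 1 CPM in 3 libraries, only the 6 libraries compared, a replicate block, leaving out each library, and a neuron marker covariate. A term for the 5 libraries rich in neuron markers and PBS replicate 1 as the only control were added after seeing the data; the lone library is assumed to vary like the other groups. The fit was tested on simulated data. A result for 1 gene that this rule names is not reported here.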

Additional observations from a re-analysis of the deposited data

How the results depend on the processing

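Of 495 alternative values for the 27 member results, 475 kept their side of the threshold, 17 lost the call and 3 gained it, as named beside each gene. No called value changed sign, but uncalled ones could, as Lifr from TNF to TNF with ACHP (-0.43 to 0.22) and Il6 with TNF (-0.17 to 0.15). From TNF to TNF with ACHP, 1 member was called in place of 2 with DESeq2, with the neuron marker covariate and with the neural library term. Over all genes that comparison gave 266 calls with the covariate and 143 with the term, against 1058. TNF with ACHP against PBS gave 493 calls with only its 6 libraries, 111 with the covariate, 162 with the term and 237 with PBS replicate 1 as the only control, against 891. Leaving out each library gave 1 to 3 members and 468 to 957 genes for TNF against PBS, 1 to 3 and 541 to 1327 for ACHP against TNF, and 2 to 3 and 494 to 988 for ACHP against PBS. The cause of these moves was not tested.

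Deviations of same-numbered libraries from their group means had correlations of -0.10 to 0.17 over 9 pairs. Those of differently numbered libraries ran from -0.21 to 0.17. With 3 libraries a group, these values cannot show whether the numbers pair the samples. With the replicate block 3, 2 and 2 members and 945, 1175 and 988 genes were called for TNF against PBS, ACHP against TNF and ACHP against PBS. At 15 to 35 counts for Il6 and 45 to 84 for Lifr, depth limits what could be detected, and Osm could not be tested.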
